A study of Mus musculus with 30 samples.

Results

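Hypothalamic RNA of mice homozygous for the human 5-repeat allele of PER3 (Per3 5/5, labelled Boxhill) was compared with that of wild-type mice (WT, labelled Wildtype) measured in the same run. The comparison holds 14 of the 30 arrays, 7 Per3 5/5 arrays and WT arrays 1 to 7, taken by their labels, with 1 array per mouse. The other 16 arrays, 8 from mice with the 4-repeat allele (Per3 4/4) and WT arrays 8 to 15, were read on another scanner and serve here for the effect of the 4-repeat allele and for the difference between the effects of the 2 alleles. By the study's methods all mice were adult males, and they had been kept in cycles of 3.5 h light and 3.5 h dark, a schedule in which light suppresses activity, and brains were taken in the light of cycle 17. In the knock-in mice the mouse exon 18 of Per3 was replaced by the human exon 18 with its 5 repeats, by recombination with a ubiquitous Cre (PGK promoter, ROSA26 locus) that was afterwards bred out. The WT line was derived from the same conditional mice. The embryonic stem cells used for targeting, Bruce4, carry Thy1.1 on a C57BL/6 background, and C57BL/6J mice served as mates of the chimeras. The methods state that the knock-in and WT mice differed genetically in nothing but the repeat. The authors left out 1 Per3 5/5 and 1 WT array of poor quality.

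PER3 belongs to the Period proteins, which act with the cryptochromes to repress the transcription factors CLOCK and BMAL1 and so close the feedback loop of the circadian clock. The repeated stretch of human PER3 lies in the coding region and is found in primates only. The hypothalamus holds the suprachiasmatic clock, the sleep-promoting preoptic neurons and the peptide neurons that govern feeding, arousal and hormone release.

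The labelled tissue was checked against its markers. Of 14 genes that define hypothalamus, 13 were tested, and the probes of all 13, among them Hcrt (orexin), Pmch (melanin-concentrating hormone), Avp, Oxt and Agrp, were well above background on all 14 arrays. Otp, a transcription factor of neuroendocrine neurons, did not pass the filter. Probes entered the test if 4 or more of the 7 arrays of a genotype measured them well above background, which left 29299 of 41174 probes and 16539 named genes. Levels are log2 intensities relative to the 75th percentile of the array, so a level of 0 equals that percentile and a difference of 1 is a doubling.

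The arrays measured similar shares of spots. The share of spots well above background was 67.0% to 73.1% (median 71.2%) in Per3 5/5 and 67.4% to 73.9% (median 71.4%) in WT (exact two-sided permutation test, p = 0.856). The 75th percentile of intensity ran from 752 to 1546 in Per3 5/5 and from 907 to 1091 in WT. Its mean, the background and the spread of replicate spots did not separate the genotypes either (exact permutation p = 0.690, 1 and 0.145). WT RNA was hybridized only at positions 1 and 3 of the slides and Per3 5/5 RNA only at positions 2 and 4, so position and genotype cannot be told apart. On 2 arrays of the other run, Per3 4/4 arrays 6 and 7, the RNA went against the stated sex. Ddx3y, a Y-linked helicase gene, had levels of -8.51 and -8.09 there (A_51_P402994) and 0.66 to 2.04 on the other 28 arrays. Its other probe, A_52_P1083441, had -8.64 to -6.22 on all 16 arrays of that run and did not separate them. Xist, which is transcribed from the inactive X chromosome of females, had 1.78 and 1.52 on those 2 arrays (A_51_P145453) and -8.37 to -4.47 on the others. On WT 10 of that run the summed level of the 13 genes that define hypothalamus was 38.0, in multiples of the array's 75th percentile, against 148 to 668 on the other 15 arrays of run 2, and that of 14 markers of cortex and hippocampus was 65.1, against 18.7 to 44.4. Effects of the 4-repeat allele are therefore also given without these 3 run-2 arrays.

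Per3 5/5 arrays 3, 5 and 6 stood apart from the other 11. On array 3, 2881 probes (9.83%) lay more than 1 log2 unit from the WT mean, on array 5 it was 1274 (4.35%) and on array 6 it was 1310 (4.47%). On the remaining Per3 5/5 arrays the number was between 255 and 566. On the WT arrays, whose own values enter that mean, the share was 0.532% to 2.73%, highest on WT 1. The first principal component carried 37.1% of the variance and set these 3 arrays against the rest. Arrays 3 and 6 had the highest 75th percentiles of intensity of the 14 (1546 and 1260), and array 5 had 988. Genes with the strongest negative weight on that component, low on the 3 arrays, included Col24a1, Anxa7 (annexin A7), Eif2ak1 (a kinase of translation initiation) and Dgcr8 (the microRNA processing partner of Drosha). Col24a1, Anxa7 and Eif2ak1 were also low on WT 1 (-2.86, -1.81 and -1.26 from the WT mean). Genes with the strongest positive weight included Cga (the common subunit of pituitary glycoprotein hormones), Plpp1, Tusc3, Arhgap36 and Vip (a peptide of suprachiasmatic neurons). At Plpp1, a lipid phosphatase, arrays 3, 5 and 6 were 2.64, 1.64 and 2.09 above the WT mean, while the other Per3 5/5 arrays lay between -0.10 and 0.18 of it. What set these arrays apart was not tested, and values without them follow many of the results below.

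**Figure D1:**
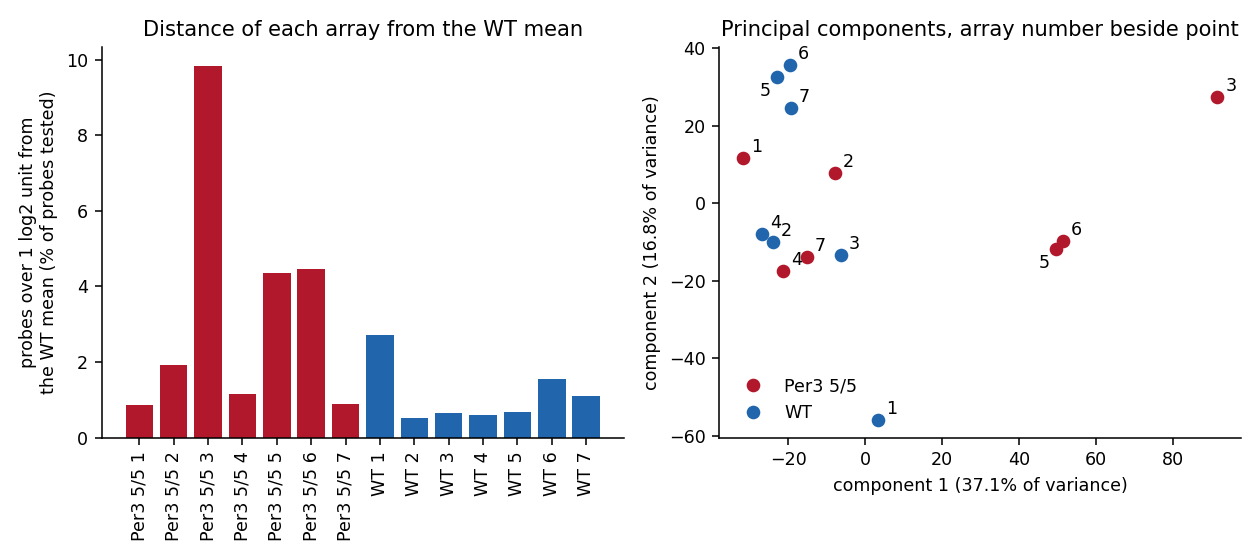
Left, share of the 29299 probes on each of the 14 arrays that lay more than 1 log2 unit from the WT mean (bars, Per3 5/5 red and WT blue). Right, the first 2 principal components, with array numbers beside the points. Per3 5/5 arrays 3, 5 and 6 have the largest shares (9.83%, 4.35% and 4.47%) and lie at the right end of component 1.

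Between Per3 5/5 and WT the adjusted threshold of 0.05 was passed by 0 probes (limma, 0% of 29299), and the smallest adjusted p was 0.441. An unadjusted p under 0.05 was reached by 3313 probes (11.3%), of which 1604 were higher (5.47%) and 1709 lower (5.83%) in Per3 5/5. Leaving out arrays 3, 5 and 6 kept the direction of 3310 of these, but only 577 (17.4%) still had an unadjusted p under 0.05. Over all probes the median log2 difference was -0.02, and the differences spread with an SD of 0.25 (0.067 as its standard error from the jackknife). All p-values below are unadjusted values of the limma fit unless named otherwise, and none of the single differences below passed the adjusted threshold with all 14 arrays. At 23 probes every Per3 5/5 array was above every WT array (0.0785%), and at 29 every one was below (0.099%).

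Genes near the start of chromosome 11 held many of the smallest p-values. Between 3 and 7 Mb, a segment chosen after its values were seen and therefore given without a test, 39 of 130 probes (30.0%) had an unadjusted p under 0.05, 21 of them higher and 18 lower in Per3 5/5. On the rest of chromosome 11 it was 10.3%, and from 8 to 12 Mb, next to the segment, 7 of 18 probes (38.9%). Without Per3 5/5 arrays 3, 5 and 6 it was 27.7% in the segment and 4.41% over all probes. Among 499 windows of 4 Mb with at least 20 probes, the window from 4 to 8 Mb held 7 probes at p under 0.001, and no other window held more than 2. By the share at p under 0.05 the segment was not the highest, since 8 windows had a larger one, up to 35.0%. Among these 8 was the window of chromosome 11 from 0 to 4 Mb (31.1% of 45 probes), whose probes all belong to the segment. The Per3 4/4 comparison had in the same segment 1 probe at an unadjusted p under 0.05 (0.769%), against 1.7% of all probes. Without the 3 run-2 arrays it had 9 (6.92%), against 7.51%.

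The probe with the smallest p of the whole comparison belonged to Ube2d-ps, a long noncoding RNA named as a pseudogene of the ubiquitin-conjugating enzymes (array name 2210015D19Rik). Another noncoding RNA of the segment, 8430429K09Rik, held a probe that was well above background on most Per3 5/5 and few WT arrays. Their probes are printed because probes of each of these genes gave opposite directions a few kilobases apart, so each value below is that of a probe and not of a whole gene. The 60-base probe sequences come from the scanner files and are in lower case throughout, with positions in mm9, the build the files name. In order of position they are 8430429K09Rik A_52_P97626 at chr11:3352555-3352614 and A_51_P273468 at chr11:3358152-3358211, and Ube2d-ps A_52_P234554 at chr11:5680220-5680279, A_52_P364871 at chr11:5680428-5680487, A_52_P588917 at chr11:5681648-5681707 and A_51_P298231 at chr11:5684493-5684552, all on the plus strand.
A_52_P97626: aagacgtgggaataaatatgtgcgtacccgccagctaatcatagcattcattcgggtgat
A_51_P273468: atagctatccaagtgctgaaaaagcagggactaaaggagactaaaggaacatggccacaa
A_52_P234554: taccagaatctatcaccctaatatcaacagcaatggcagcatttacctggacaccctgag
A_52_P364871: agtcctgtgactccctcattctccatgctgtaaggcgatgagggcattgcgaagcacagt
A_52_P588917: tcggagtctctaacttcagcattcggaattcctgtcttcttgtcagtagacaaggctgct
A_51_P298231: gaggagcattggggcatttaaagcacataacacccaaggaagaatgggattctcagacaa

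At the last of these, A_51_P298231, the level of Ube2d-ps was -1.13 at the lowest, -0.82 at the median and -0.68 at the highest in Per3 5/5, and -0.74, 0.27 and 0.76 in WT. Every WT array but WT 7 lay above every Per3 5/5 array, and WT 7, at -0.74, lay among the Per3 5/5 arrays. The difference was -1.06 (standard error 0.17, p = 2.21e-05, adjusted p = 0.441 from limma), with 7 of 7 Per3 5/5 arrays below the WT mean. The 2 probes at the start of the gene were also lower, by -0.57 (standard error 0.16) and -0.48 (standard error 0.14). The probe between, A_52_P588917, was higher in 7 of 7, by 0.67 (standard error 0.17, p = 0.00156), with Per3 5/5 levels from 0.31 to 0.68 and WT levels from -1.12 to 0.49. There too WT 7 had the highest WT level, 0.49, and the next WT array was at -0.10.

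WT 7 was near the Per3 5/5 arrays at neighbouring genes as well. At Sf3a1, a subunit of the U2 splicing complex (A_52_P569178), the Per3 5/5 levels were -1.49, -0.52 and 0.00 (lowest, median, highest) and the WT levels -1.84, -1.66 and -0.66, the last that of WT 7. The difference was 1.02 (standard error 0.23, p = 0.000424), higher than the WT mean in 7 of 7, and the other Sf3a1 probe had a difference of 0.26 (p = 0.0127). At Tbc1d10a, which encodes a Rab GTPase-activating protein, the difference was 0.60 (standard error 0.12, p = 0.000135), with Per3 5/5 levels from 0.29 to 0.70. WT 7 had 0.44 there and the other WT arrays -0.31 to -0.12. At Ccdc157, a coiled-coil gene, the levels were -4.61 to -3.13 in Per3 5/5 and -5.41 to -4.16 in WT, again with WT 7 highest, and the difference was 1.15 (standard error 0.26, p = 0.000471). The other 2 probes of Ccdc157 had 0.04 and 0.07. With WT 7 left out, 2 probes passed the adjusted threshold in limma, Ube2d-ps A_51_P298231 (-1.21, adjusted p = 0.0013) and Tbc1d10a (0.70, adjusted p = 0.0196), and 12 of the 45 probes at an unadjusted p under 0.001 lay in the segment. No other single array left out gave an adjusted call. WT 7 lay with Per3 5/5 at both probes that passed, so leaving it out widened their differences. These calls are therefore no independent support.

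Per3 5/5 array 5 departed from its group at part of the same segment. At 8430429K09Rik A_51_P273468 it had a level of -7.23, while the other Per3 5/5 arrays lay between -1.82 and -0.57. The WT arrays lay between -7.70 and -5.36 except WT 7, at -1.73, and 6 of 7 Per3 5/5 arrays but 2 of 7 WT arrays measured it well above background. The probe thus entered the test through Per3 5/5 and most of its WT values are near background, so no size or p-value is read from its fit. At the other probe of the gene the difference was -0.35 (p = 0.0299), and -0.18 (p = 0.236) without arrays 3, 5 and 6. At Sf3a1 and Ccdc157 array 5 also had the lowest Per3 5/5 level (-1.49 and -4.61), as it had at Dusp18, a dual-specificity phosphatase (-6.02), and Sec14l4, a lipid-binding protein (-4.18). At Tbc1d10a and the Ube2d-ps probes, which lie farther along the chromosome, array 5 was with its group. A probe without a gene name or position, A_52_P788961, followed 8430429K09Rik, with array 5 at -5.19 and the other Per3 5/5 arrays between -1.70 and -0.32. In WT it was at -1.21 on WT 7 and between -5.78 and -4.45 on the others.

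The remaining genes of the segment went both ways. Sec14l2, a lipid-binding protein, had a difference of -0.45 (standard error 0.10, p = 0.0005), and Camk2b, the beta subunit of the calcium and calmodulin dependent kinase, one of -0.36 (standard error 0.08, p = 0.000232). At Camk2b the Per3 5/5 levels, 4.76 to 5.10 (median 4.86), did not overlap with those of WT, 5.18 to 5.43 (median 5.26). Tmed4, of the p24 family of secretory transport, was higher without overlap (0.50, standard error 0.14, p = 0.00255), and by 0.21 without arrays 3, 5 and 6. The 2 probes of the RNA helicase gene Ddx56 disagreed, at -0.48 and 0.31, and at -0.23 and 0.33 without the 3 arrays.

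**Figure D2:**
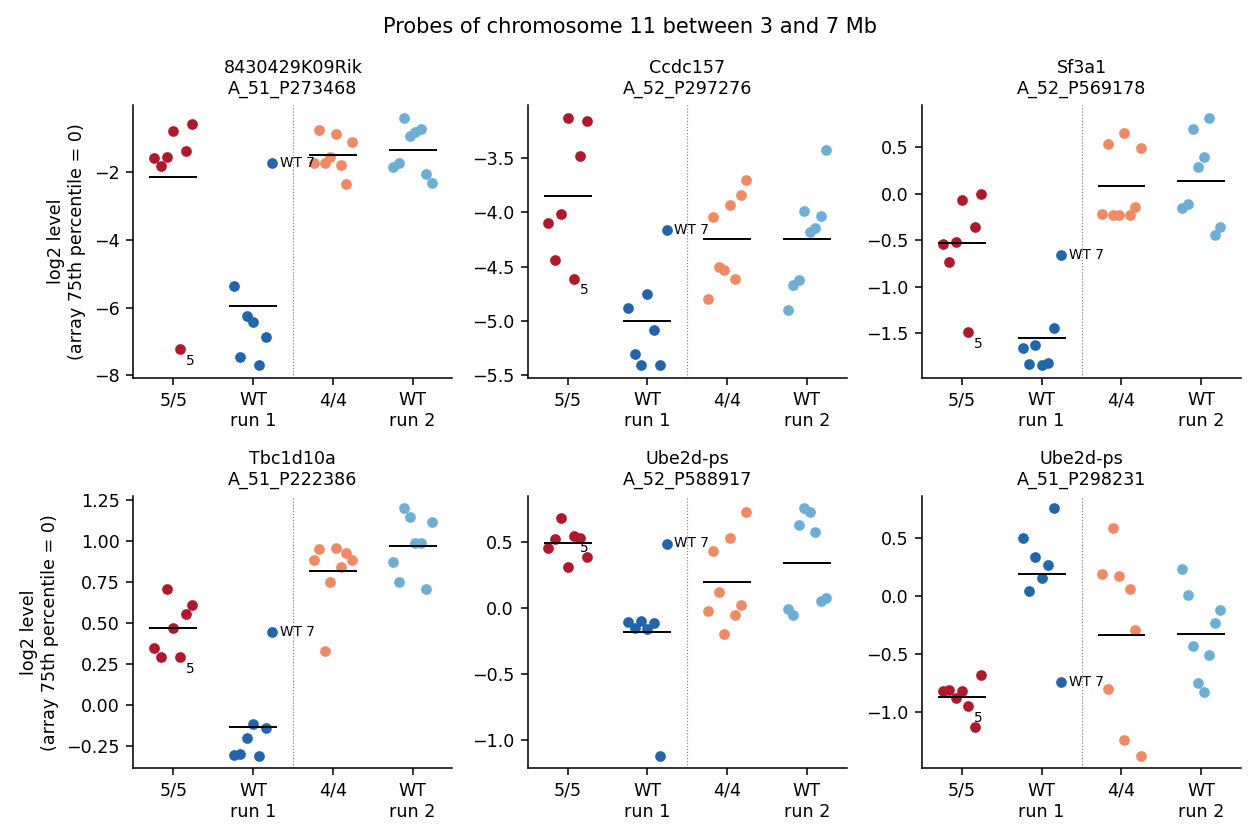
Levels of 6 probes of the segment on chromosome 11 (log2, array 75th percentile = 0) on all 30 arrays, by group, with the group mean as a line. Dotted lines separate the runs, whose levels are not comparable. WT 7 is labelled and lies with the Per3 5/5 arrays at each of these probes, and Per3 5/5 array 5 is marked 5. In run 2 both groups spread over the range at several probes.

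Some of these probes varied within the groups of run 2 as well, while others, such as Tbc1d10a (0.33 to 1.20 over its 16 arrays), varied less. At Ube2d-ps A_51_P298231 the Per3 4/4 levels ran from -1.38 to 0.59 and those of WT arrays 8 to 15 from -0.83 to 0.23, and the Per3 4/4 effect was -0.01, or -0.10 without the 3 run-2 arrays. The difference between the effects of the 2 alleles was tested over all 30 arrays, among them the 14 by whose values the segment was chosen. Its share of calls in the segment is thus no independent support. This difference was under an unadjusted p of 0.05 at 20 of the 130 probes (15.4%), against 921 of all 30262 probes tested (3.04%). No probe passed the adjusted threshold (limma, 0%). At Tbc1d10a it was 0.75 (p = 5.9e-05), at Sf3a1 A_52_P569178 1.08 (p = 0.00199) and at Ube2d-ps A_51_P298231 -1.05 (p = 0.00461). Without the 3 run-2 arrays, 26 of the 130 probes were under that p, against 7.54% of all, none passed the adjusted threshold in limma, and these differences were 0.74, 0.92 and -0.96. With Per3 5/5 array 5, which lay with WT at both, left out, it passed in limma at A_52_P788961 (3.69, adjusted p = 0.0448) and at 8430429K09Rik A_51_P273468. The latter was above background on 2 of 7 WT arrays and entered the test through Per3 5/5, so no size is read from that call. Both calls appeared only with the array that lay with WT left out, so neither is independent support. On the 16 arrays of run 2, of both genotypes, levels were -2.09 to -0.56 at A_52_P788961. At 8430429K09Rik A_51_P273468 they were -2.35 to -0.40 there. Levels of the 2 runs are not comparable. In the stretch of distal chromosome 4 that holds Per3, 27 of 244 probes (11.1%) had an unadjusted p under 0.05 in Per3 5/5. This was near the 11.3% of all probes. The difference between the alleles was under that p at 17 of these probes (6.97%), against 3.04% of all. Without the 3 run-2 arrays it was so at 24 (9.84%), against 7.54%. The Per3 4/4 comparison had 21 such probes there (8.61%), against 1.7% of all. Without the 3 run-2 arrays it had 26 (10.66%), against 7.51%.

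Outside the segment, the largest negative differences included those of Dsp, Sln, Tnfrsf25 and Egr4. Dsp, which encodes the desmosome protein desmoplakin and is found in dentate granule cells, had levels of -5.32, -3.76 and -1.73 (lowest, median, highest) in Per3 5/5 and -2.29, -1.18 and -0.13 in WT. The groups overlapped, with WT 2 the lowest WT array and arrays 1, 2 and 3 the highest of Per3 5/5. The difference was -2.21 (standard error 0.54, p = 0.000921), equal to 4.62-fold lower, below the WT mean in 7 of 7. It was -2.03 without arrays 3, 5 and 6 and 0.07 in Per3 4/4 (-0.09 without WT 10 and 0.14 without the 3 run-2 arrays). Bcl11b and Bcl11a, zinc finger factors of cortical and striatal neurons, had differences of -1.09 (p = 0.00511) and -0.99 (p = 0.00185), and -1.36 and -0.55 without arrays 3, 5 and 6. The RIKEN clone 2810427C15Rik had -1.02 (p = 0.00269), but -0.56 without them. Ptk2b, a tyrosine kinase activated by calcium and abundant in forebrain, had -1.14 (p = 0.00431), and Sipa1l1, a postsynaptic regulator of Rap, had -1.21 (p = 0.00268). Without the 3 arrays they were -0.86 and -0.69. Hectd2, a ubiquitin ligase, had -0.99 (p = 0.00852), but -0.52 without arrays 3, 5 and 6 (p = 0.145).

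Of the 14 markers of cortex and hippocampus, all were tested, 4 were lower at an unadjusted p under 0.05 and 0 were higher, against 5.47% lower and 5.76% higher of all genes tested. Their median difference was -0.26, against -0.01 over all genes. Fezf2, a transcription factor of deep cortical layers, had levels of -4.65, -4.05 and -3.15 in Per3 5/5 and -3.89, -3.25 and -2.53 in WT, and a difference of -0.75 (standard error 0.23, p = 0.00531), below the WT mean in 6 of 7. The groups overlapped. Tbr1, another factor of deep layers, had -0.73 (p = 0.038), and Camk2a, the alpha subunit of the kinase and the brightest probe of the list, had -0.56 (p = 0.0196). Without arrays 3, 5 and 6, 4 were again lower (2.5% of all genes were), and the median was -0.46, while Camk2a had -0.46 (p = 0.106). In Per3 4/4 the median was 0.02, or 0.11 without the 3 run-2 arrays. The summed level of the 14 markers, in multiples of the array's 75th percentile, was 41.5, 38.8, 55.0, 40.2, 39.0, 35.7 and 43.2 on Per3 5/5 arrays 1 to 7 and 97.3, 39.2, 78.3, 39.8, 56.3, 57.8 and 49.5 on WT arrays 1 to 7. WT 2 and WT 4 were thus among the Per3 5/5 arrays, and WT 1 and WT 3 were far above them. No marker of the list was absent, and 13 of the 14 were well above background on every array.

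Of 22 tested genes induced by neuronal activity, 6 were lower in Per3 5/5 and 0 higher, against 5.47% and 5.76% of all genes, with a median difference of -0.20 and 1 of 22 above 0. The 6 were Nr4a1, Klf4, Egr4, Arc, Egr3 and Egr2. Nr4a1, an orphan nuclear receptor and the brightest probe of the list, had levels of 2.00, 2.22 and 2.56 in Per3 5/5 and 2.19, 2.66 and 3.26 in WT, with a difference of -0.51 (standard error 0.14, p = 0.00288), below the WT mean in 7 of 7. Egr4, of the early growth response factors, had -1.30 (standard error 0.41, p = 0.00632), with levels of -1.87, -1.23 and 0.39 against -1.19, 0.49 and 1.29. The high Per3 5/5 level was that of array 3, and the low WT levels were those of WT 2 and WT 4 (-1.19 and -0.97). Arc, a postsynaptic regulator of AMPA receptors, had -0.85 (p = 0.0101), and Egr3 -1.50 (p = 0.0141). Fos, which is widely used as a marker of activity, had -0.13 (p = 0.605). Without arrays 3, 5 and 6, 11 of the 22 were lower (2.5% of all genes were) and the median was -0.33. The Per3 4/4 median was -0.23, with 2 of 22 lower, against 0.846% of all genes lower in that comparison. This median rested on WT 10, since it was -0.02 with none lower when that array alone was left out. Without the 3 run-2 arrays it was 0.00 with 1 lower, against 4.07% of all genes.

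The activity-regulated genes and the markers of cortex and hippocampus were high or low on largely the same arrays. On WT 1 and WT 3 the medians of both lists were above the WT mean (0.17 and 0.45 on WT 1, 0.32 and 0.48 on WT 3). On WT 2 and WT 4 they were below it (-0.62 and -0.49 on WT 2, -0.27 and -0.53 on WT 4). The medians were 0.06 and 0.07 on WT 5 and 0.03 and 0.09 on WT 6, but went apart on WT 7, at 0.12 and -0.15. On Per3 5/5 array 3 they were 0.051 and 0.052, and on the other Per3 5/5 arrays both were below 0. The summed level of the activity-regulated genes was 20.3 to 29.9 (median 21.3) in Per3 5/5 and 19.5 to 42.5 (median 30.7) in WT. The part of cortical or hippocampal RNA in the lower levels of the activity-regulated genes was not tested, and in pieces of tissue fewer cells of a type and less RNA per cell cannot be told apart.

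**Figure D3:**
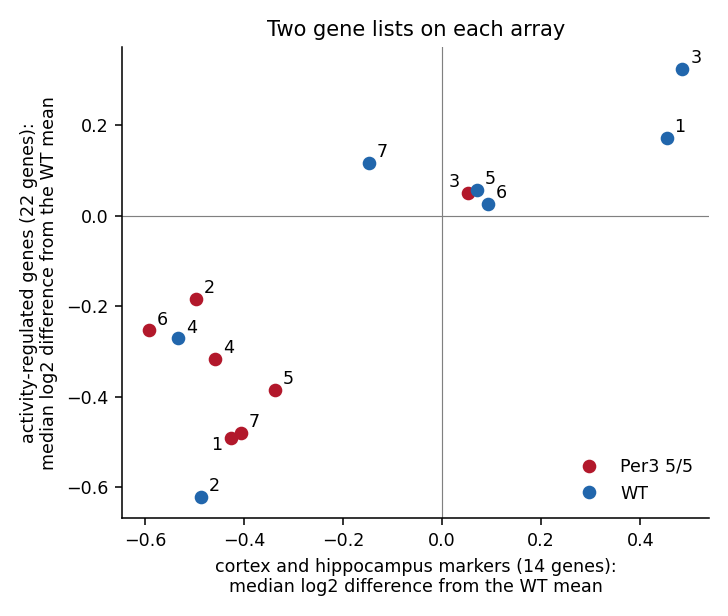
Median log2 difference from the WT mean of the 22 activity-regulated genes (vertical) against that of the 14 markers of cortex and hippocampus (horizontal), 1 point per array with its number. Per3 5/5 arrays except array 3 lie at the lower left together with WT 2 and WT 4, and WT 1 and WT 3 lie at the upper right.

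Some genes that differ without overlap are outside these lists. Slc17a6, which encodes the vesicular glutamate transporter VGLUT2 of hypothalamic and thalamic neurons, was higher at both of its probes. At A_52_P8197 the levels were 3.64, 3.78 and 3.99 in Per3 5/5 and 3.13, 3.43 and 3.56 in WT, and at A_51_P174996 they were 4.69, 4.81 and 4.89 against 4.13, 4.42 and 4.67, with no overlap at either. The differences were 0.38 (standard error 0.08, p = 0.000361) and 0.35 (standard error 0.08, p = 0.000576), or 1.30-fold at the former, and 0.38 and 0.31 without arrays 3, 5 and 6. They were positive on each of the 4 slides. In Per3 4/4 the effects were 0.48 (standard error 0.31) and 0.40 (0.33), and the differences between the alleles, -0.10 and -0.05, had unadjusted p of 0.826 and 0.914. These effects rested on WT 10, which had 0.34 and 1.00 where the other WT arrays of run 2 had 2.98 to 3.96 and 3.94 to 4.90. Leaving it out gave 0.07 and -0.04, and without the 3 run-2 arrays the effects were 0.12 and -0.03 and the differences between the alleles 0.26 (p = 0.164) and 0.38 (p = 0.0247). Slc17a8, the related transporter VGLUT3, was higher by 0.57 (p = 0.00162; 0.35 without arrays 3, 5 and 6), and Slc17a7, the cortical transporter VGLUT1, had -0.48 (p = 0.235).

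Orai2, a pore subunit of store-operated calcium channels, was lower without overlap. Its levels were -0.22, -0.04 and 0.03 in Per3 5/5 and 0.15, 0.42 and 0.93 in WT, with WT 1 and WT 3 highest. The difference was -0.57 (standard error 0.12, p = 0.000212), equal to 1.48-fold lower, and -0.54 without arrays 3, 5 and 6. The Per3 4/4 effect was 0.09, and the difference between the alleles was -0.65 (p = 0.000712, adjusted p = 1 from limma), and 0.08 and -0.65 (p = 0.00131) without the 3 run-2 arrays. Among genes of metabolism, Foxo1, the insulin-regulated factor, had levels of 0.98 to 1.44 against 1.55 to 1.85 (difference -0.38, standard error 0.08, p = 0.000398). Pdk4, the kinase that inhibits pyruvate dehydrogenase and a known target of FOXO1, had -0.77 to -0.40 against -0.32 to 0.16 (difference -0.37, p = 0.000957). In Per3 4/4 the effects were -0.24 and 0.14, and without the 3 run-2 arrays they were -0.24 (p = 0.0796) and 0.25. At Foxo1 WT 10 was the highest array of run 2 (2.66), and leaving out WT 10 alone gave -0.13. Dab1, the adaptor of reelin signalling, had -0.37 (p = 0.00156), the monocarboxylate transporter Slc16a6 -0.37 (p = 0.000532), 2900026A02Rik -0.34 (p = 0.00018) and Ppdpf -0.59 (p = 0.00033), each below every WT array in 7 of 7.

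Further genes higher without overlap, among those with the widest gaps, were Glrb (0.28, p = 0.00112, but 0.18 without arrays 3, 5 and 6), the beta subunit of the glycine receptor, Akr1e1 (0.24, p = 0.002), an aldo-keto reductase, and Knop1 (0.24, p = 0.0064), a nucleolar protein. Akr1e1 and Knop1 each had 0.17 without arrays 3, 5 and 6. Atp5b and Atp5g3, of ATP synthase, and Pmpca, of the mitochondrial processing peptidase, had differences of 0.21, 0.35 and 0.20. These were smaller without arrays 3, 5 and 6, at 0.17, 0.15 and 0.18. At Atp5g3 arrays 3, 5 and 6 had 6.96, 6.92 and 6.81, the other Per3 5/5 arrays 6.33 to 6.53 and the WT arrays 6.25 to 6.31.

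**Figure D4:**
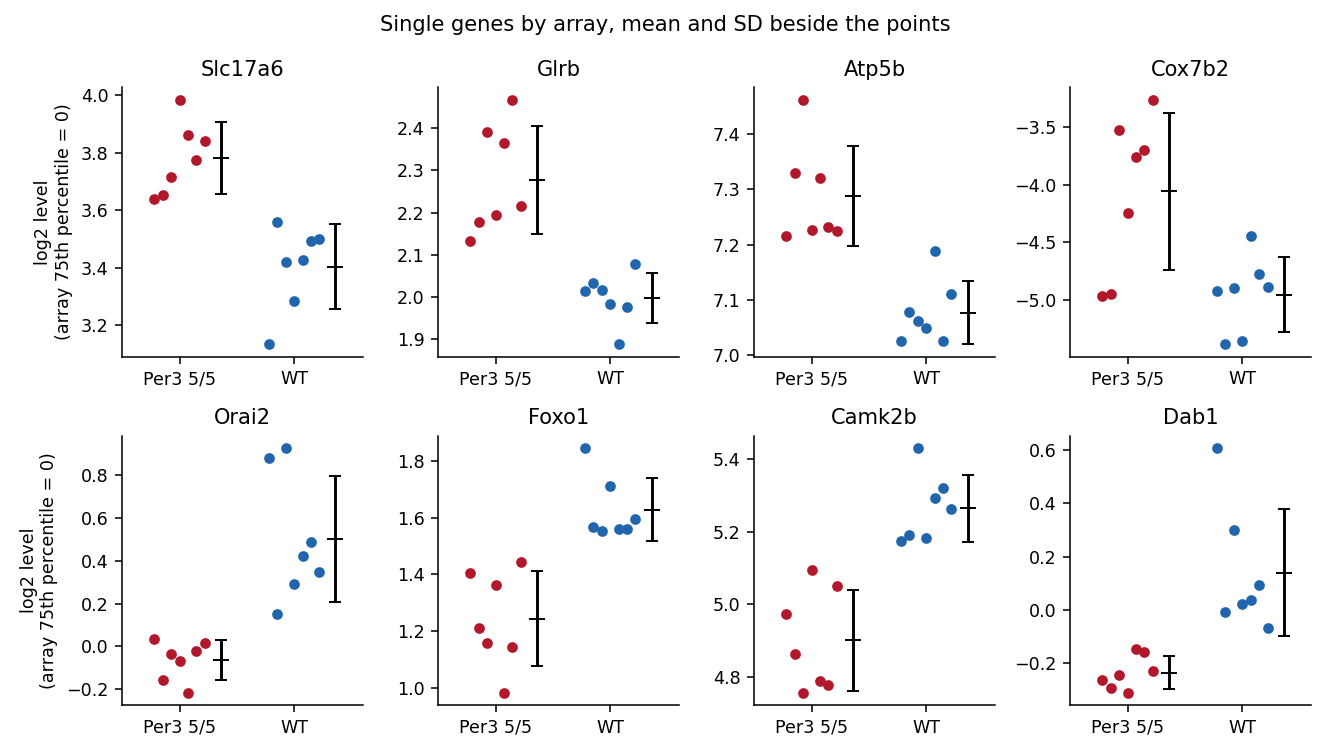
Levels (log2, array 75th percentile = 0) of 8 genes on the 7 Per3 5/5 (red) and 7 WT (blue) arrays, with the mean and SD beside the points and a scale of its own for each gene. The groups do not overlap at any gene but Cox7b2, where 2 Per3 5/5 arrays lie among the WT arrays.

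The largest positive differences outside the segment on chromosome 11 included that of Nkx2-4, a homeobox factor of the ventral forebrain. Its levels were -1.02, -0.83 and 0.46 in Per3 5/5 and -1.99, -1.47 and -0.70 in WT, which overlap, with a difference of 0.73 (standard error 0.25, p = 0.00972), above the WT mean in 7 of 7. It was highest on array 6, and the difference was 0.42 (p = 0.0844) without arrays 3, 5 and 6. In Per3 4/4 the effect was 1.08 (standard error 0.72), but WT 10 was at -8.02 and the other WT arrays of run 2 at -3.01 to 0.44. The effect was 0.20 without WT 10 and 0.09 (standard error 0.44) without the 3 run-2 arrays. Further genes were 1500004A13Rik, a noncoding RNA (0.95), Cox7b2, a cytochrome oxidase subunit (0.89), Prph, the filament protein peripherin (0.84), Ptger2, a prostaglandin E receptor (0.82), the contactin Cntn5 (0.76), Haus4 of the mitotic spindle (0.71) and Myadml2 (0.66), with p between 0.000578 and 0.00526. Without arrays 3, 5 and 6, 1500004A13Rik had 0.66, Cox7b2 0.60 (p = 0.0686), Prph 0.49 (p = 0.0504), Ptger2 0.36, Cntn5 0.39 (p = 0.0679), Haus4 0.54 and Myadml2 0.40.

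Peptide genes differed less once the 3 arrays that stood apart were left out. Of 28 hypothalamic neuropeptide genes tested, 3 were higher, 0 lower and 24 had a difference above 0, with a median of 0.28, where 5.76% of all genes were higher and 5.47% lower. Grp (gastrin-releasing peptide), Pmch and Cartpt had 0.59 (p = 0.0067), 0.60 (p = 0.0196) and 0.51 (p = 0.0487). Without arrays 3, 5 and 6 none of the 28 was higher (2.13% of all genes were), 1 was lower (Vip, -0.61) and the median was 0.08. Grp, Pmch and Cartpt then had 0.23, 0.19 and 0.07. In Per3 4/4 the median was 0.26 and none was higher (0.937% of all genes were), and without the 3 run-2 arrays it was 0.08, again with none (5.12%). Leaving out WT 10 alone gave 0.12. The summed level of the 13 genes that define hypothalamus was highest on array 6 (247, in multiples of the 75th percentile), and it was 199, 199 and 196 on arrays 1, 3 and 5. Arrays 2, 4 and 7 had 109, 160 and 137, within the range of the WT arrays, 97.5 to 175. Of 32 neuropeptide receptors, 2 were higher (Tacr3 and Mc4r) and 1 lower (Crhr2, -0.31), and none without the 3 arrays. Of 19 hypothalamic transcription factors none was at an unadjusted p under 0.05 with all arrays. Without arrays 3, 5 and 6, 3 were lower (2.5% of all genes were), among them the homeobox genes Dlx1 (-0.44) and Lhx6 (-0.65).

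Neighbouring tissues were measured by their marker lists. Of 10 thalamic genes 2 were higher, Rgs16 (0.27, p = 0.00975) and Prkcd (0.60, p = 0.0311), and 9 had a difference above 0. The share over all genes was 5.76% higher and 5.47% lower for this and the lists that follow, and 2.13% and 2.5% without arrays 3, 5 and 6. Without those arrays 4 thalamic genes were higher, and the median went from 0.16 to 0.29. Rgs16 then had 0.21 (p = 0.0543) and Prkcd 0.32 (p = 0.141). The summed level of the 10 thalamic genes was 36.3 to 65.0 in Per3 5/5 and 38.3 to 57.3 in WT, lowest on array 6 and on WT 1. Of 17 choroid plexus genes 4 were lower (Tmem72, Clic6, Slc4a5 and Kl), and the median was -0.74, or -0.41 with 3 lower without arrays 3, 5 and 6. In Per3 4/4 the median had the opposite sign, 0.79 with 4 higher, where 0.937% of all genes were. Without WT 10 it was 0.60 with 1 higher, and without the 3 run-2 arrays 1.13 with 7 higher, where 5.12% of all genes were. Arrays 5, 6 and 7 were low, with medians of -1.47, -1.12 and -1.22 against the WT mean, and no other array was below -0.36. Of 9 anterior pituitary genes none was called, but the summed level was 50.9 on Per3 5/5 array 1 and 13.1 or less on every other array. Striatal genes were called at 1 of 11 (Gpr6, 0.72). Gpr6 was well above background on 4 Per3 5/5 and 3 WT arrays, so it entered the test through Per3 5/5. It had 0.04 (p = 0.828) without arrays 3, 5 and 6, where 2 others were lower, among them the dopamine receptor gene Drd1 (-0.58). Genes of ependyma and tanycytes were called at 1 of 10 (Crym, -1.08, and -1.79 without the 3 arrays). No marker of oligodendrocytes (17), astrocytes (13), microglia (15), endothelium and mural cells (17), meninges (12) or blood (5) was at an unadjusted p under 0.05 with all arrays. On the 3 arrays that stood apart, however, the markers of astrocytes, oligodendrocytes and vessels were low. The median difference from the WT mean on arrays 3, 5 and 6 was -0.49, -0.38 and -0.39 for astrocytes, where the other Per3 5/5 arrays had -0.03 to 0.09 and WT 6, the lowest WT array, -0.32. It was -0.32, -0.27 and -0.48 for oligodendrocytes and -0.47, -0.32 and -0.36 for endothelium and mural cells, with -0.05 to 0.13 and -0.25 to 0.19 on the other Per3 5/5 arrays. WT 6 had -0.33 for endothelium and mural cells, below array 5. Microglia went otherwise, with 0.39 on array 3, the highest of the 14 arrays, and -0.51 and -0.21 on arrays 5 and 6. The part of these tissues and cells in the differences of other genes, among them the peptide, proteasome and chromatin genes that moved with the same 3 arrays, was not tested.

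Among synaptic genes the directions were mixed. Of 43 genes of GABA and glutamate synapses, 5 were higher and 5 lower, where 5.76% of all genes were higher and 5.47% lower. Besides both glutamate transporters, the higher ones included the GABA-A subunit gene Gabra2 (0.61, p = 0.00246) and the glutamate receptor gene Grm8 (0.39, p = 0.025). The lower ones were Gria1 (-0.22, p = 0.00657), the NMDA receptor subunits Grin2a (-0.64, p = 0.0104) and Grin2b (-0.62, p = 0.0433), Grm5 and the scaffold Dlgap1. With the 3 arrays left out 3 were higher and 3 lower, where 2.13% and 2.5% of all genes were. Grm8 then had 0.11, Grin2a -0.39 and Grin2b -0.09, none of them at an unadjusted p under 0.05. Of 52 genes of axon guidance and synaptic adhesion 1 was higher (Cntn4, 0.34, p = 0.00159) and 7 lower, first among them Plxna4, a semaphorin receptor (-0.38, p = 0.00154). Of 29 sodium and calcium channel genes 2 were higher, with Scn1a (0.51, p = 0.0187) first, and 1 lower. Without the 3 arrays 2 were again higher and 1 lower, but Scn1a had 0.16 (p = 0.286) and Scn3a, the other higher one with all arrays, 0.02. The lower one was Cacna1h, the T-type calcium channel (-0.45, standard error 0.10, p = 0.000318), with levels of -1.32 to -1.10 against -1.19 to -0.50 and 7 of 7 below the WT mean. Of 82 potassium channel genes 6 were higher (7.32%) and 4 lower (4.88%), near the shares over all genes, and 3 and 6 without the 3 arrays.

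Some gene groups of cell maintenance had fewer calls without arrays 3, 5 and 6, as all genes did (from 5.76% to 2.13% higher and from 5.47% to 2.5% lower). Of 39 chromatin and transcription regulators 9 were lower, among them Hdac4 (-0.38, p = 0.00518), the demethylase gene Kdm6b (-0.40), Dnmt3a (-0.43) and Smarca4 (-0.38), and 1 was higher (Hdac2, 0.45). Without the 3 arrays 1 was lower, Hdac4 (-0.16), and 0 higher. Of 40 proteasome subunits 10 were higher and 0 lower, with Psma7 (0.20, p = 0.00789) first. Without the 3 arrays 1 was higher. Of 92 subunits of the respiratory chain and ATP synthase 14 were higher and 2 lower, and 5 were higher and 0 lower without the 3 arrays. Of 80 cytosolic ribosomal proteins none was called in either direction, at a median of -0.06.

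**Figure D5:**
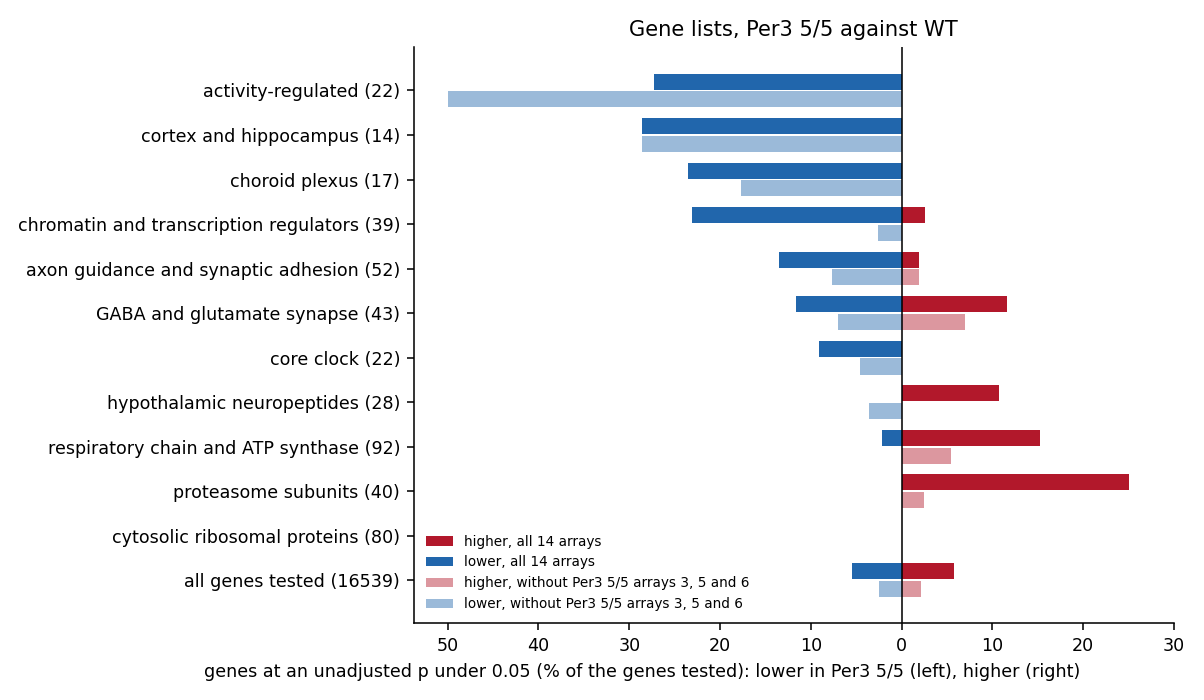
Share of the tested genes of 11 lists, and of all genes tested, at an unadjusted p under 0.05, higher in Per3 5/5 to the right and lower to the left, with the number of genes tested in brackets. Pale bars leave out Per3 5/5 arrays 3, 5 and 6. The bars of proteasome subunits and chromatin regulators shrink without them (from 10 to 1 higher and from 9 to 1 lower), and those of activity-regulated genes grow (from 6 to 11 lower).

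The remaining groups had few calls or were large families, and their counts are given with the higher genes first. Over all genes 5.76% were higher and 5.47% lower, and 2.13% and 2.5% without arrays 3, 5 and 6. RNA splicing had 3 higher and 2 lower of 41, led by Sf3a1 and by Elavl3, a neuronal RNA-binding protein (-0.27, and -0.11 without arrays 3, 5 and 6). Heat shock and the unfolded protein response had 2 and 1 of 29, led by the chaperones Dnaja1 (0.52, but 0.05 without arrays 3, 5 and 6) and Dnajb5 (-0.31). Interferon and inflammation had 2 and 1 of 27, led by Irf7 (0.25) and Cd74, the invariant chain (-0.67). Cholesterol and lipid synthesis had 1 and 1 of 23, Fdft1 (squalene synthase, 0.38) and Srebf2 (-0.20), which had 0.08 (p = 0.382) and -0.03 (p = 0.637) without arrays 3, 5 and 6. Families taken by symbol gave 17 and 11 of 344 Zfp genes, 15 and 9 of 296 solute carriers, 6 and 6 of 157 ubiquitin enzyme genes, 4 and 2 of 68 Rab genes, 3 and 1 of 27 keratins, 5 and 8 (12.5%) of 64 chemokines and interleukins, 0 and 4 of 47 collagens and laminins and 0 and 1 of 62 cadherins. Olfactory receptors gave 2 and 2 of 273, and 14 and 1 without arrays 3, 5 and 6, where 2.13% and 2.5% of all genes were called. Vomeronasal receptors (31) and Hox genes (13) gave none with all arrays, and vomeronasal receptors gave 2 and 0 without the 3 arrays. Of 850 RIKEN clones 35 were higher and 76 lower (8.94%), and 18 and 17 without the 3 arrays. Of 4 tested sex chromosome genes 1 was called, Ddx3y (0.30, p = 0.0168, and 0.15 without the 3 arrays).

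Per3 itself, at its single probe on chromosome 4, had levels of -3.41, -2.62 and -2.56 in Per3 5/5 and -3.41, -2.51 and -2.28 in WT, which overlap fully. The difference was -0.23 (standard error 0.19, 95% interval -0.63 to 0.17, p = 0.232). The 3 lowest Per3 5/5 levels were those of arrays 3, 5 and 6, and without them the difference was 0.06. The relation of this probe to the replaced exon was not settled, so it is no check of the knock-in. Of 22 core clock genes 2 were lower (9.09%, against 5.47% of all genes), Per2 (-0.26, p = 0.0496) and Clock (-0.19, p = 0.0378), the median difference was 0.00, and 0 were higher. Clock was -0.07 without arrays 3, 5 and 6, and Per2 was -0.30 (p = 0.0498). Of 19 genes of sleep homeostasis 2 were lower (10.5%), Tnfrsf25 (-1.36) and Adora1, the adenosine A1 receptor (-0.23, p = 0.0426), which had -0.11 without arrays 3, 5 and 6. For the difference between the alleles none of the 22 clock genes had an unadjusted p under 0.05, and without the 3 run-2 arrays Clock did (-0.52, p = 0.0157).

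The genes the study names for this protocol were 12. It names them as differentially expressed in these same data, so their calls are not independent of that choice. At the brightest probe 3 were lower and 2 higher, where 5.47% of all genes were lower and 5.76% higher. Without arrays 3, 5 and 6, 5 were lower and none higher, where 2.5% and 2.13% of all genes were. Tnfrsf25, a death receptor of the tumour necrosis factor family on chromosome 4, had levels of -3.31, -3.08 and -2.54 against -3.51, -1.36 and -0.49, with a difference of -1.36 (standard error 0.36, p = 0.00196), below the WT mean in 7 of 7. WT 2, at -3.51, lay below every Per3 5/5 array, and WT 4, at -2.49, just above the highest. Sln, sarcolipin, the inhibitor of the calcium pump, had levels of -2.88, -1.01 and 0.97 against -0.58, 1.20 and 2.23, and a difference of -1.96 (standard error 0.62, p = 0.00672), also in 7 of 7. Homer1, a postsynaptic scaffold, had differences of -0.59 (p = 0.00442), -0.52 (p = 0.00199), -0.81 (p = 0.0213) and -0.19 (p = 0.174) at its 4 probes in the order of chromosome 13. Without arrays 3, 5 and 6 they were -0.30, -0.35, -0.86 and -0.34. Both Ptgs2 probes were near background (well above it on 3 and 1 Per3 5/5 arrays and on 5 and 4 WT arrays) and entered the test through WT, with -1.15 (p = 0.0518) and -1.24 (p = 0.0736), and array 3 was the highest Per3 5/5 array at each. Without arrays 3, 5 and 6 the Ptgs2 probes had -1.67 (p = 0.0169) and -1.78 (p = 0.0235), with the same limit by signal. Kcne2, Ttr, Tmem72 and Apoc4 had -1.33, -2.01, -1.87 and -1.14 and Prl 0.85, with p between 0.0142 and 0.357. Prl was well above background on 4 arrays of each group. Its level was -0.95 and -1.60 on Per3 5/5 arrays 1 and 6 and -6.43 to -5.37 on the other Per3 5/5 arrays. Array 1 also had the highest summed level of pituitary genes. Without WT 7 the Prl difference was 0.51. Kcne2, Ttr and Tmem72 are genes of choroid plexus, whose markers were low on arrays 5, 6 and 7, and had -0.76, -1.02 and -1.33 without arrays 3, 5 and 6. At Kcne2 the lowest Per3 5/5 level was more than 3 log2 units below the lowest WT level. Ttr and Tmem72 were well above background on 5 and 4 Per3 5/5 arrays only, so the size of their differences is limited by signal. At Apoc4 WT 1 and WT 6 had levels of -1.56 and -2.12, and the other WT arrays, at -5.73 to -4.98, lay within the Per3 5/5 range. Ccl21a, a lymphoid chemokine, had -1.63 (p = 0.0556). Its level was -0.36, -0.20 and -2.93 on WT 4, 5 and 6, and the other WT arrays, at -5.31 to -4.78, lay within the Per3 5/5 range of -5.37 to -4.50. The probes of Slx1b (0.15 and 1.21) and Rpp40 (0.99 and 0.29) differed from each other, also without arrays 3, 5 and 6 (0.09 and 2.89, and 0.81 and -0.07). Single arrays weighed on 2 of these values. At Slx1b A_51_P335104, Per3 5/5 arrays 2, 4 and 7 and WT 3 had levels of 0.28 to 0.38, and the others -5.02 to -4.11. At Rpp40 A_51_P319392, WT 4 had -6.04 and the other WT arrays -3.58 to -2.93.

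Genes known to vary between C57BL/6 substrains or stem cell lines were few. Of 6 tested, Wdfy1 was higher (0.38, standard error 0.14, p = 0.0176, and 0.35 with p = 0.0535 without arrays 3, 5 and 6), while Nnt had -0.06 and Thy1 -0.03. D630033O11Rik, a noncoding RNA at chr9:43088033 and less than 1 Mb from the Thy1 probes, had levels of -4.86, -4.28 and -3.77 in Per3 5/5 and -3.95, -3.19 and -2.44 in WT, and a difference of -1.11 (standard error 0.22, p = 0.000175), below the WT mean in 7 of 7. It was -1.04 without arrays 3, 5 and 6 and -0.17 in Per3 4/4 (0.27 without WT 10, which was highest of run 2 at -1.63, and 0.33 without the 3 run-2 arrays). The difference between the alleles was -0.94 (p = 0.116), and -1.45 (p = 0.00169) without the 3 run-2 arrays. Among WT arrays 1 to 7, D630033O11Rik was highest on WT 1 and WT 3 (-2.44 and -2.62) and lowest on WT 2 and WT 4 (-3.95 and -3.64). The markers of cortex and hippocampus were highest and lowest on the same arrays. The part of cortical or hippocampal RNA in this difference was not tested.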

How the data were processed

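RNA of 14 hypothalami, 1 Agilent 4x44K array each, was labelled with Cy3. The authors deposited scanner files of Feature Extraction 10.7.1.1 with spot intensities, background-subtracted and not normalized between arrays. The file of Per3 5/5 array 1 had been saved again with rounded signals (3981 distinct values). The authors also deposited log2 values shifted to the 75th percentile. These were centred per probe within the run, and 13 of their 14 columns for this run matched the scanner file of another replicate of the same genotype, so they were used as an alternative only.

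Control and outlier spots were left out, log2 intensities were shifted by the array's 75th percentile, and spots of a probe were averaged. Genotypes were compared with limma 3.58.1 in R 4.3.3 (moderated variances, Benjamini-Hochberg over 29299 probes, threshold 0.05). The difference between the knock-in effects was a contrast of 4 groups over all 30 arrays. The number of arrays limits the precision. By the methods each mouse had its own cage during the experiments, and whether any shared a litter is not stated. Per-array measures were tested by exact permutation over 3432 splits. Calculations also used Python 3.11.15, numpy 2.4.6, pandas 2.3.3, scipy 1.17.1 and matplotlib 3.10.9. The limma step was tested on simulated data.

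Names were updated through RefSeq accessions (GRCm38.p6 table, names only) for 22464 of the tested probes, and 26086 had a symbol. A gene in a list is its brightest probe. Named are the 12 genes with the largest difference in each direction at an unadjusted p under 0.01 and above background on all 14 arrays, the 8 per direction with the widest gap between groups, the genes the study names for the protocol with every probe, and the member with the smallest p in each list. A few genes that the rule or a list would name are not reported here. Other genes were named after their values were seen, as were those of chromosome 11, Per3 5/5 arrays 3, 5 and 6, Per3 4/4 arrays 6 and 7 and WT array 10. The members and lists were chosen with earlier results of these data known. Alternatives were other samples, slide or replicate as a block, other background correction, scaling, filters, weights and moderation, the authors' table, the methods' t-test, and each array left out.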

Additional observations from a re-analysis of the deposited data

Results flagged for a closer look

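In 12 of 126 groups of 7 arrays (9.52%), 1 array lay far from its group by Dixon's criterion, which chance alone meets in about 1 in 20 groups. Per3 5/5 array 3 was the distant one for the median of the cortex and hippocampus markers (0.052 from the WT mean, next -0.34), for Homer1 A_52_P151211 (-0.70), Knop1 (1.24) and both Ptgs2 probes, A_51_P254855 (-3.82) and A_52_P224760 (-4.68). Array 6 was so for Nkx2-4 (0.46), as the highest of its group.

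Among WT arrays, WT 7 was the distant one for Sf3a1 A_52_P569178 (-0.66, next -1.44), the probe of chromosome 11 at which it lay with Per3 5/5. WT 1 was so for Ppdpf (5.32) and Slx1b A_51_P113773 (-1.01). WT 3 was so for Slx1b A_51_P335104 (0.31, next -4.11), WT 4 for Rpp40 A_51_P319392 (-6.04) and WT 6 for Ube2d-ps A_52_P588917 (-1.12).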

How the results depend on the processing

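With all 14 arrays no probe passed the adjusted threshold in limma or in the methods' t-test under any alternative (1577 higher and 1534 lower at an unadjusted p under 0.05 in the t-test). With single arrays left out, 0 to 2 probes passed, 2 of them without WT 7, and the difference between the alleles gave 0 to 2, with 2 without Per3 5/5 array 5. The counts at an unadjusted p under 0.05 moved by over 1.5 times in some settings. Those higher in Per3 5/5 numbered 1027 with all 30 arrays in the fit, 3026 with the slide as a fixed block, 647 without Per3 5/5 arrays 3, 5 and 6 and 816 to 2288 with single arrays left out. Those lower numbered 892, 2645, 644 and 939 to 2686. Single omissions that moved a count this far were those of Per3 5/5 arrays 3 (962 higher), 5 (816 and 939), 6 (945 and 1101) and 1 (2686 lower). The SD of the differences, 0.218 to 0.288 with single arrays left out, was 0.172 with normexp background correction. The cause of these shifts was not tested. For the difference between the alleles 0 probes passed without Per3 4/4 arrays 6 and 7, without WT 10 or without all 3, each also chosen after seeing the data. With the replicate block, 1790 probes were higher and 1704 lower and 0 passed. Same-numbered arrays did not deviate together (r from -0.30 to 0.42), and only arrays 3 and 4 correlated best with their own number. Quantile normalization moved the split to 1931 higher and 1458 lower, and the authors' table gave 1717 and 1577. Without Per3 5/5 arrays 3, 5 and 6, an alternative chosen after seeing the data, the sign turned at Per3 (0.059) and Rpp40 A_52_P366047 (-0.075). The other 55 of 57 probes so followed kept their sign under all 28 alternatives. Probes not well above background, such as 8430429K09Rik A_51_P273468 in WT, are limited by signal.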
